A study of Mus musculus with 6 samples.

Results

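The genes described here encode the plasminogen activators Plau and Plat, the urokinase receptor Plaur, the protease inhibitor Serpine2, and the coagulation proteins F3, Tfpi and Thbd. They were chosen by symbol as a list of 7 genes of the plasminogen and coagulation systems. The list was drawn up with earlier results of these data known, out of 18193 genes that the array annotation pairs with a probe set. Of the 7, 6 had at least 1 paired probe set and together 11 probe sets. No probe set is paired with Serpine2 in the annotation used here, so that gene was not analysed here. The samples were NIH3T3 cells, an immortalised fibroblast line from mouse embryos, and their RNA was hybridised to 6 Affymetrix arrays. Of these, 3 came from cells with mutant LPAR1 and 3 from cells with wild-type LPAR1, a receptor for the serum lipid lysophosphatidic acid. The time points were 0, 60 and 120 minutes, with a single array for each genotype at each time and no repeat. The labels do not name the mutation, describe any treatment that began at 0 minutes, or give the number of cultures or clones, so the mutation and the history of the cells that carry it cannot be told apart.

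Plasminogen is cut to plasmin, a protease that dissolves fibrin and also acts on extracellular matrix. Urokinase (Plau) and tissue plasminogen activator (Plat) make that cut, and the urokinase receptor (Plaur) holds urokinase at the cell surface by a lipid anchor, where fibroblasts use it in migration and wound repair. Tissue factor (F3) is a membrane protein that binds factor VII and starts coagulation, Tfpi inhibits that step, and thrombomodulin (Thbd) turns thrombin from a clotting enzyme into an activator of protein C. F3 and Plaur are known as genes that growth factors and serum induce quickly in fibroblasts.

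The upstream sequences of F3 and Plaur, whose levels changed several-fold over the time course, are shown with those of Tfpi, which passed no time contrast. They come from RefSeq on build GRCm38.p6, which held windows of 300 bases around the gene start for F3, Plaur, Tfpi and Serpine2. The 250 bases before the start are printed 5′ to 3′ on the gene's own strand: F3 at chr3:121723287-121723536 (plus strand), Plaur at chr7:24462233-24462482 (plus strand), and the windows of Tfpi at chr2:84474175-84474424 and chr2:84476760-84477009 (minus strand). Capitals mark matches to the AP-1 motif TGANTCA and the EGR motif GCGNGGGCG, searched on both strands.
F3: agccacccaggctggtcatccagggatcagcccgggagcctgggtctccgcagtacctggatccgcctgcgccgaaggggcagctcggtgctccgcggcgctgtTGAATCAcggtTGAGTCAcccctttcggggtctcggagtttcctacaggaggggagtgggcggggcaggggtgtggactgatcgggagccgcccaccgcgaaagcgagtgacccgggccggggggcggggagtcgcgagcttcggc
Plaur: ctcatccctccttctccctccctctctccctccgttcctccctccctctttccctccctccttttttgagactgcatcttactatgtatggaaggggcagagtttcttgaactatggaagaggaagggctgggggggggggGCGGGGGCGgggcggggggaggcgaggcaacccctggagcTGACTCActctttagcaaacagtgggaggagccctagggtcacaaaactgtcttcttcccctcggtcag
Tfpi window 1: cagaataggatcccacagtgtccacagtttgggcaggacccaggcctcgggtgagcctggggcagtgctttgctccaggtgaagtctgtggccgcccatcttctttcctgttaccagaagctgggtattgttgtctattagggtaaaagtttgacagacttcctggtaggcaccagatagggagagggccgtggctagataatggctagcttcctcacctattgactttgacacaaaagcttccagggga
Tfpi window 2: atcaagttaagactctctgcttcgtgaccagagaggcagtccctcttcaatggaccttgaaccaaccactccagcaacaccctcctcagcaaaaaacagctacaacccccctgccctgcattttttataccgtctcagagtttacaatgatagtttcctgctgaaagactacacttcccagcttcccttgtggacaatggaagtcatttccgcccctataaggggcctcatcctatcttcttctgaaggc
The F3 window held AP-1 matches that began 146 and 135 bases before the start, and the Plaur window held one that began 69 bases before it. An AP-1 match was present in 7.81% of all 32851 promoter windows of the same length. Plaur also held an EGR match that began 109 bases before the start and overlapped matches to the SP1 motif GGGCGG, and an EGR match was present in 5.55% of windows. Neither Tfpi window held an AP-1 or EGR match. The CRE motif TGACGTCA and the CArG box that SRF binds were in none of these 4 windows, and in 1.79% and 1.63% of all windows. SP1 matches and NF-kB matches occurred in 35.7% and 50.8% of all windows. A match says only that these letters are present.

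Values are intensities of a probe set, a group of probes for 1 transcript, on a linear scale. Differences are on log2(intensity + 16), and the brightest probe set on average stands for its gene. The test covered the 10916 genes whose mean reached the filter level, an intensity of 39.2. The mean intensity of an array lay between 299 and 308. Levels are not compared between probe sets, since each has its own brightness. All 10 fibroblast markers, among them Col1a1, Vim and Pdgfrb, lay above the filter level, with summed intensities of 59133 to 60277 in mutant and 59874 to 61500 in wild-type cells. Single fibroblast markers did differ (limma). Between genotypes Col1a1 differed by log2 -0.49, Pdgfrb by -0.23 and Col3a1 by 0.18 (adjusted p = 0.000186, 0.00986 and 0.00660). Over 120 minutes Pdgfra differed by -0.64 and Pdgfrb by -0.32 (adjusted p = 3.35e-05 and 0.00172). From 0 to 60 minutes Pdgfra gave -0.30 and Col5a1 -0.21 (adjusted p = 0.0110 and 0.0184). From 60 to 120 minutes Pdgfra gave -0.34, Col5a1 0.17 and Thy1 0.21 (adjusted p = 0.00370, 0.0389 and 0.0377). Of 8 endothelial markers 6 lay below the filter level, and their summed intensities were 154 to 187 in mutant and 152 to 156 in wild-type cells. The endothelial marker Pecam1 had intensities from 2.79 to 5.66. Cdh5 had 61.4 to 64.6 in mutant and 22.4 to 27.4 in wild-type cells, and passed the filter only through its mutant arrays. Of 8 macrophage and haematopoietic markers 5 lay below the filter level, with sums of 414 to 441 in mutant and 467 to 508 in wild-type cells, and Cd14 was lower in mutant cells (log2 -0.27; adjusted p = 0.0225). Of 6 epithelial markers 4 lay below it, with sums of 328 to 438 in mutant and 362 to 431 in wild-type cells, and Cdh1 differed by -0.49 between genotypes (adjusted p = 0.00283) and by -0.53 over 120 minutes (adjusted p = 0.00145). The part of these marker differences in the results was not tested. Fewer cells of a type and less RNA per cell cannot be told apart in RNA from whole cultures. Lpar1 itself was somewhat higher in mutant cells (log2 0.18 ± 0.045, SE; adjusted p = 0.0207), and whether its probes detect an introduced receptor is not known.

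**Figure D1:**
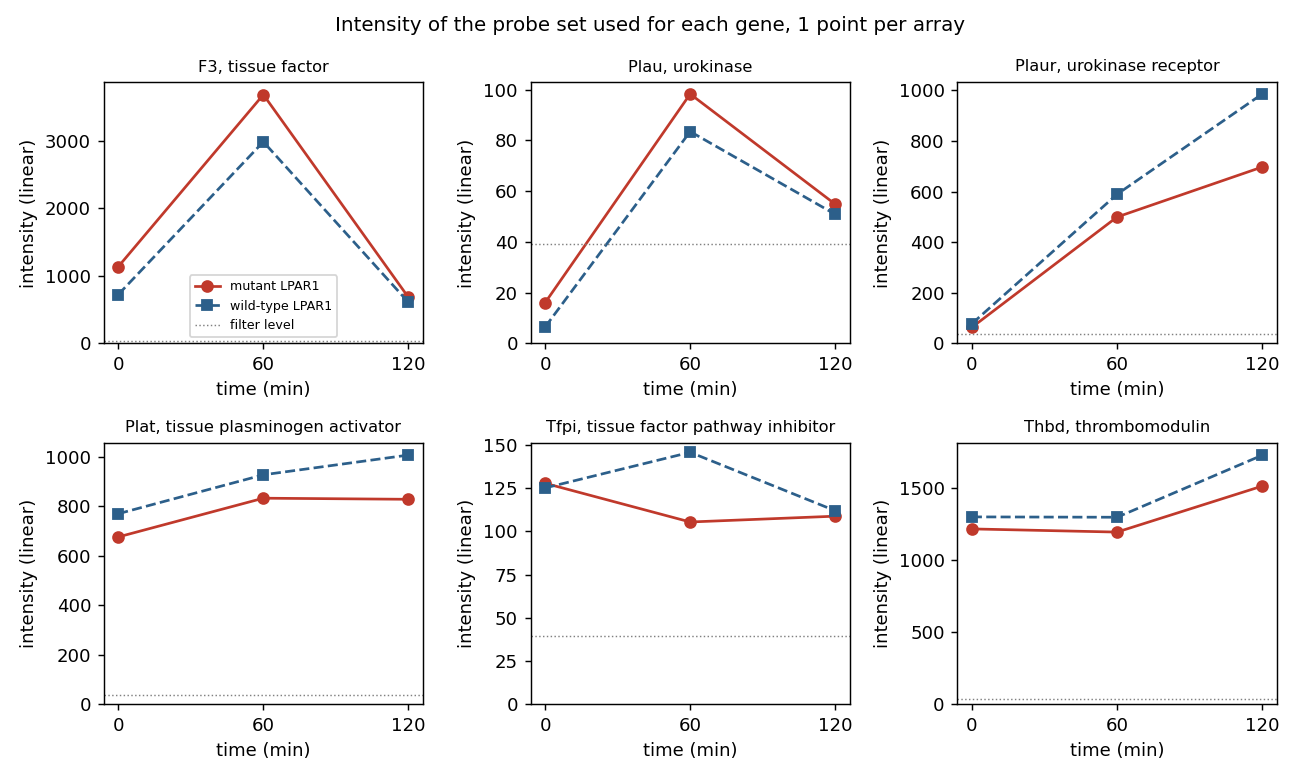
Intensity on a linear axis against time in minutes for the 6 measured genes, 1 point per array, with mutant cells as red circles, wild-type cells as blue squares and the filter level of 39.2 as a dotted line. F3 and Plau peak at 60 minutes in both genotypes, and Plaur is highest at 120 minutes.

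The comparison of 60 with 0 minutes asks what changed over the first hour in both genotypes. F3, Plaur, Plau and Plat rose, while Tfpi and Thbd did not pass the test at an adjusted p of 0.05. Among all genes tested, 7.34% rose and 10.7% fell by the same test. Plau entered the tested genes only through its 60 and 120 minute arrays, and without it 3 of 5 measured members rose and 0 fell. The median difference of these 5 was log2 0.28, against -0.07 over all genes tested. Since the members were chosen with earlier results known, these counts and medians describe the list and do not test it against all genes. The Actb control ratio is its 5′ signal over its 3′ signal, a measure of how intact the labelled RNA was. It stood at 0.650 to 0.699 at 60 and 120 minutes, against 0.505 in mutant and 0.579 in wild-type cells at 0 minutes. The same ratio of Gapdh was 0.991 to 1.03 at 60 and 120 minutes, against 0.954 in mutant and 1.02 in wild-type cells at 0 minutes. The part of these ratios in the differences between times or genotypes was not tested.

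F3, tissue factor, showed a short peak. In mutant cells its intensity was 1137 at 0, 3685 at 60 and 682 at 120 minutes. In wild-type cells it was 724, 2987 and 609 at the same times. Both 60 minute arrays stood far above the other 4, and both 120 minute arrays lay below the 0 minute array of their own genotype. The first hour brought a 3.61-fold rise (log2 1.85 ± 0.096, SE; adjusted p = 6.24e-07, n = 2 arrays per time, 1 of each genotype, limma), with intensity ratios of 3.24 in mutant and 4.13 in wild-type cells. The second hour brought a fall of log2 -2.34 ± 0.096 (adjusted p = 2.73e-07), which ranked 9 among the 10916 genes by size of decrease. At 120 minutes F3 had fallen below its level at 0 minutes (log2 -0.48 ± 0.096; adjusted p = 0.00231). That net change was log2 -0.72 within mutant and -0.24 within wild-type cells, and leaving out the mutant array of 0 minutes gave -0.28 (adjusted p = 0.0183).

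Plaur, the urokinase receptor, rose in both hours. Its intensity in mutant cells was 63.7 at 0, 499 at 60 and 697 at 120 minutes. In wild-type cells it was 78.1, 589 and 985. The 0 minute arrays were above the filter level but lowest in both genotypes, and the 120 minute arrays were highest. The rise over the first hour was 6.45-fold (log2 2.69 ± 0.084; adjusted p = 1.53e-08), the 29th largest increase among the genes tested. Over the second hour Plaur rose further by log2 0.60 ± 0.084 (adjusted p = 0.000607), by 0.47 within mutant and 0.73 within wild-type cells. The net rise over 120 minutes was 9.76-fold (log2 3.29 ± 0.084; adjusted p = 4.76e-09), which ranked 14 among increases.

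Plau, which encodes urokinase, the ligand of that receptor, was dim at the start. Its intensity in mutant cells was 16.03 at 0, 98.3 at 60 and 54.8 at 120 minutes. In wild-type cells it was 6.46, 83.5 and 50.9. Both 0 minute arrays lay below the filter level, and the 4 later arrays lay above it, without overlap. Plau passed the filter only through those later arrays, so the p-values of its rises from 0 minutes are not taken as support for them. The first hour gave a rise of log2 1.99 ± 0.14 (adjusted p = 6.47e-06), and since the starting level is low, its size depends on the offset: it was 3.02 with an offset of 1 and 1.04 with an offset of 64. The second hour gave a fall of log2 -0.63 ± 0.14 (adjusted p = 0.00816), or -0.77 and -0.41 with those offsets. The call of that fall was lost with the offset of 1 (adjusted p = 0.0581) and without the mutant array of 120 minutes (0.0576) or the wild-type array of 60 minutes (0.0535). The net rise was log2 1.36 ± 0.14 (adjusted p = 3.57e-05), or 2.26 and 0.64 with offsets of 1 and 64. The other Plau probe set was below the filter level in every array, between 21.3 and 24.7 in mutant and between 13.8 and 19.8 in wild-type cells. It did not show the rise, so the sets of this gene disagree. Its 60 minus 0 minutes difference was log2 0.20 ± 0.12 (adjusted p = 0.426, limma). That value is from the unfiltered fit of all 34945 probe sets, which was added after seeing the data.

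**Figure D2:**
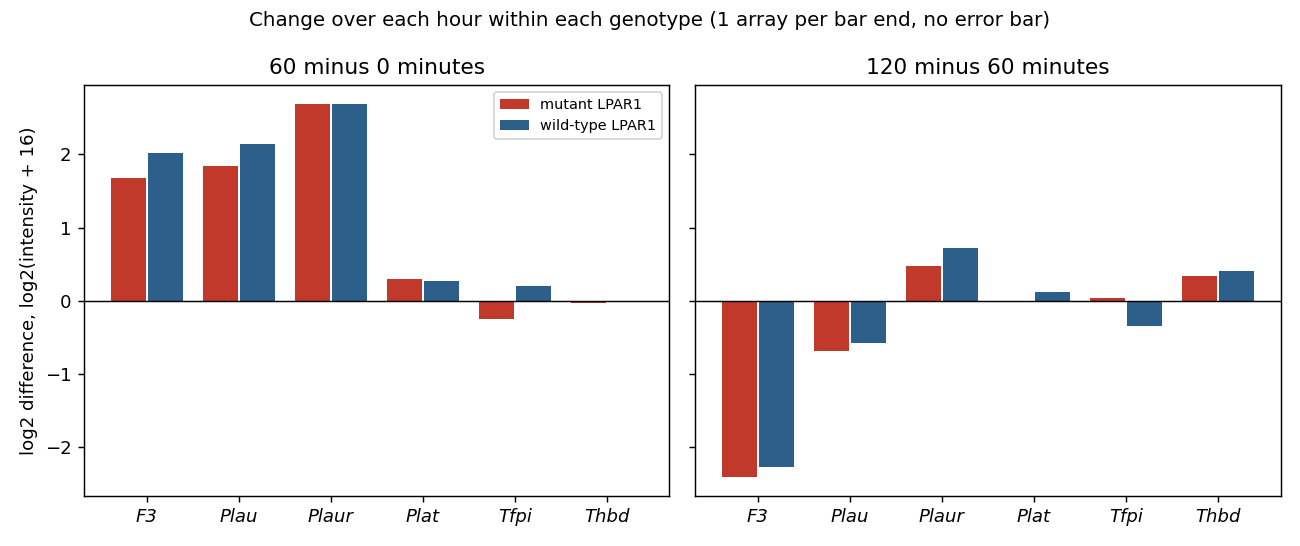
Log2 differences over the first hour (left panel) and the second hour (right panel) for each gene, with mutant cells in red and wild-type cells in blue; each bar is the difference of 2 single arrays and has no error bar. F3, Plau and Plaur rose in the first hour in both genotypes, and in the second hour F3 and Plau fell while Plaur rose.

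Plat, the second activator, rose little. Its intensity in mutant cells was 676 at 0, 832 at 60 and 828 at 120 minutes. In wild-type cells it was 770, 927 and 1007. The 0 minute array was lowest in each genotype. The first hour gave log2 0.28 ± 0.062 (adjusted p = 0.0123) and the whole course log2 0.33 ± 0.062 (adjusted p = 0.00163), while the second hour gave 0.05 ± 0.062 and did not pass (adjusted p = 0.600). The first-hour call was lost without the mutant array of 60 minutes (adjusted p = 0.104) and without the 0 minute array of mutant or of wild-type cells (0.0518 and 0.0894), and when the probe sets of the gene were averaged (0.107). A dimmer Plat set had intensities from 30.1 to 45.0. In the unfiltered fit of all probe sets it gave log2 0.06 ± 0.115 over the first hour and 0.27 ± 0.115 over 120 minutes. Neither passed (adjusted p = 0.846 and 0.137, limma).

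Thbd, thrombomodulin, rose in the second hour and did not pass in the first. Its intensity in mutant cells was 1215 at 0, 1194 at 60 and 1512 at 120 minutes. In wild-type cells it was 1299, 1296 and 1726. The 0 and 60 minute arrays of a genotype lay close together, and the 120 minute array was highest in each. The second-hour rise was log2 0.37 ± 0.056 (adjusted p = 0.000901), against -0.01 ± 0.056 for the first hour (adjusted p = 0.886). Over the whole course Thbd rose by log2 0.36 ± 0.056 (adjusted p = 0.000561). Thbd is best known from endothelium. Of the endothelial markers Kdr, Tek and Erg were, like Thbd, highest at 120 minutes in both genotypes, each below the filter level throughout. Kdr had 14.9, 18.0 and 30.8 in mutant and 19.8, 19.9 and 25.6 in wild-type cells at 0, 60 and 120 minutes. Pecam1, Cdh5, Tie1, Vwf and Eng were not highest at 120 minutes in both genotypes. Eng had 38.2 to 54.3 in mutant and 44.4 to 70.3 in wild-type cells, while Pecam1 and Vwf had at most 8.69 in any array, and the part of these markers in the level of Thbd was not tested.

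Tfpi, the inhibitor of tissue factor, passed none of the time contrasts. At the probe set used, its intensity in mutant cells was 128 at 0, 105 at 60 and 109 at 120 minutes. In wild-type cells it was 125, 146 and 112. The arrays overlapped between times. The log2 differences were -0.02 ± 0.12 for the first hour, -0.15 ± 0.12 for the second and -0.17 ± 0.12 for the whole course (adjusted p = 0.909, 0.424 and 0.260).

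For the second hour, 2 members rose and 2 fell, or 2 and 1 without Plau, where 10.2% of all genes tested rose and 15.0% fell. Over the whole course 4 members rose and 1 fell, or 3 and 1 without Plau, against 16.2% and 30.8% of all genes. The contrasts of 60 and of 120 with 0 minutes share the 0 minute arrays, so they are not separate measurements. Leaving out the genotype term, which adds the genotype difference to the residual, ended the second-hour calls of Plau, Plaur and Thbd (adjusted p = 0.0998, 0.102 and 0.0587), the whole-course calls of F3 and Plat (0.143 and 0.0949) and the first-hour call of Plat (0.306).

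The comparison of mutant with wild-type cells asks how the genes differed between genotypes across the 3 times. F3 was higher in mutant cells, Plaur and Plat were lower, and Plau, Tfpi and Thbd did not pass. Among all genes tested 10.4% were higher and 8.92% lower, so 1 higher and 2 lower of 6 is a small count to set beside that background. The median difference over the 6 genes was log2 -0.14, against 0.01 over all genes tested. These calls rest on pairing the arrays by time. With no replicate block 0 members passed at the adjusted threshold and 0 had an unadjusted p under 0.05 (limma). In that fit 89 of all 10916 genes tested passed. The adjusted p was 0.989 for F3, 0.997 for Plaur and 0.713 for Plat, because the time differences then enter the residual.

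F3 differed by log2 0.37 ± 0.078 (SE; adjusted p = 0.0107, limma), with the mutant array higher at each of the 3 times. Its level in mutant cells was 157% of wild-type at 0, 123% at 60 and 112% at 120 minutes, and the corresponding log2 differences were 0.64, 0.30 and 0.16. The difference was thus greatest in the 0 minute pair. Dropping the 0 minute array of mutant or of wild-type cells gave 0.23 (adjusted p = 0.0256 and 0.0234), and either omission removes the same pair. Without the trend in shrinkage F3 missed the threshold (adjusted p = 0.0550). The change of this difference over time has no residual degrees of freedom and was not tested.

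Plaur differed by log2 -0.32 ± 0.069 (adjusted p = 0.0112), with the mutant array lower at each time. Its level in mutant cells was 81.6% of wild-type at 0, 84.8% at 60 and 70.7% at 120 minutes. The pair of 120 minutes was the farthest apart (log2 -0.49), and the pairs of 0 and 60 minutes were alike (-0.24 and -0.23). Plat differed by -0.20 ± 0.051 (adjusted p = 0.0211), with levels in mutant cells of 87.8%, 89.8% and 82.2% of wild-type. Its call was lost without either 0 minute array (adjusted p = 0.0547 without that of mutant and 0.0565 without that of wild-type cells), without either 120 minute array (0.0728 and 0.0744), without the trend (0.0649), with averaged probe sets (0.0624) and in the unfiltered fit of all probe sets that was added after seeing the data (0.0578), though not in the filtered fit of all probe sets (0.0394). The dimmer Plat set was lower in mutant cells at all 3 times too, by -0.14 ± 0.094 in the unfiltered fit (adjusted p = 0.460).

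Plau was higher in the mutant array of each pair, by 0.51, 0.20 and 0.08, and did not pass (log2 0.27 ± 0.11; adjusted p = 0.137). The largest of these, at 0 minutes, compared intensities of 16.03 and 6.46, both below the filter level, so its size depends on the offset. Thbd was lower in each pair, by -0.09, -0.12 and -0.19, and did not pass either (-0.13 ± 0.046; adjusted p = 0.0705), though it did after quantile normalization (-0.14; adjusted p = 0.0388). Of the 6 genes 5 thus went the same way at all 3 times, as did 51.3% of all genes tested.

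**Figure D3:**
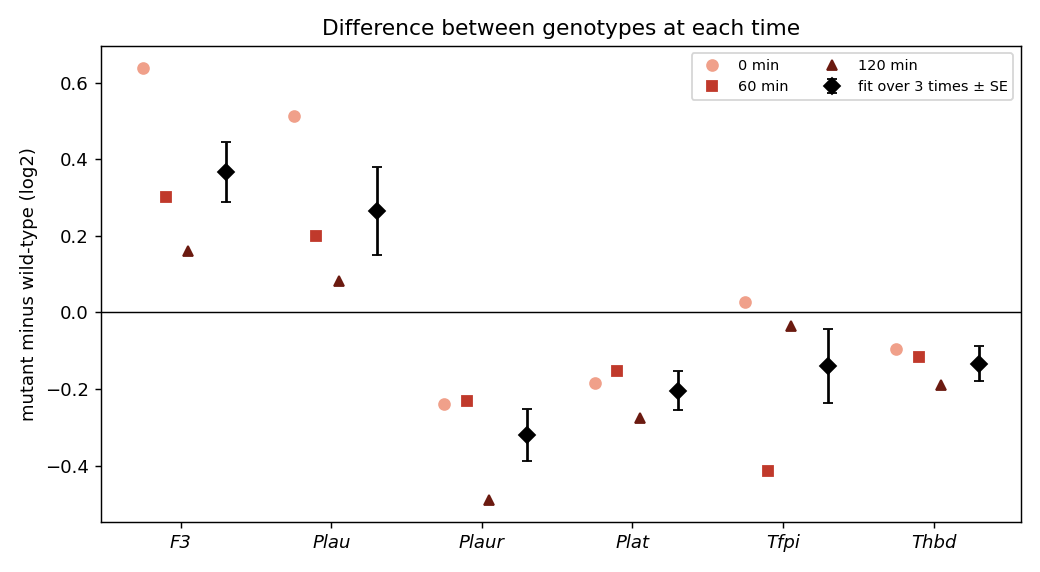
Mutant minus wild-type difference in log2(intensity + 16) for each gene, with 1 coloured point for each time and a black diamond for the fit over the 3 times with its SE. F3 and Plau lie above 0 and Plaur, Plat and Thbd below 0 at every time, and Tfpi has points on both sides of 0.

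Tfpi depended on which probe set was read. The brightest set gave differences of 0.03 at 0, -0.41 at 60 and -0.04 at 120 minutes, and the fit did not pass (log2 -0.14 ± 0.096; adjusted p = 0.347). The set 1451791_at, designed on the same mRNA record, had intensities of 30.8, 35.1 and 29.2 in mutant cells, against 49.9, 46.4 and 58.7 in wild-type cells. These groups did not overlap, which was also so for 16.7% of all genes tested at their own sets. Its difference was log2 -0.50 ± 0.11, with an adjusted p of 0.0272 when all 34945 probe sets were fitted without a filter. The sets 1438530_at and 1452432_at, below the filter level in every array, gave -0.40 ± 0.10 and -0.31 ± 0.10 (adjusted p = 0.0555 and 0.113). When its 4 probe sets were averaged, Tfpi was lower in mutant cells by -0.34 ± 0.073 (adjusted p = 0.0200). That average gives the brightest set no more weight than 1438530_at and 1452432_at, or than 1451791_at, whose mutant arrays all lay below the filter level. It therefore leans on dim sets and does not settle a difference that the brightest set did not show.

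**Figure D4:**
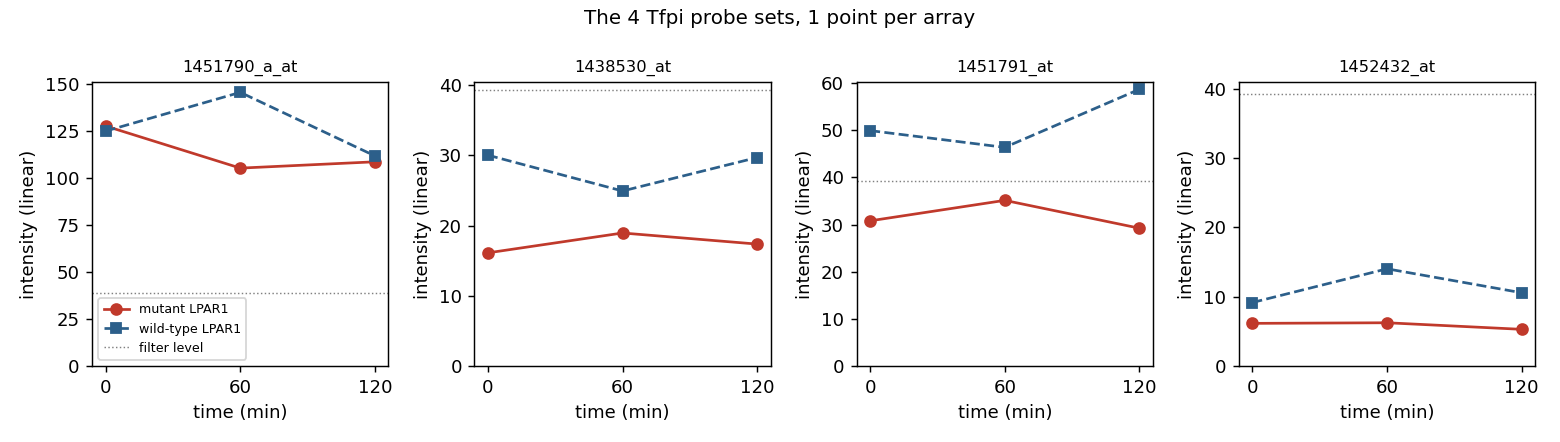
Intensity on a linear axis against time in minutes for the 4 Tfpi probe sets, 1 point per array, with mutant cells in red, wild-type cells in blue and the filter level as a dotted line. The brightest set, 1451790_a_at, has genotypes that overlap, while the other 3 sets are lower in mutant cells at every time.

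Other genes of these systems were taken from lists of their known members, which were drawn up with earlier results of these data known. Of 15 further plasminogen genes, 12 had a probe set and 6 lay above the filter level, and of 28 further coagulation genes 27 had a set and 7 lay above it. Plasminogen itself (Plg) was dim, at 11.5 to 14.2 in mutant and 7.70 to 12.4 in wild-type cells. So were prothrombin (F2), factor VII (F7) and factor X (F10), at 5.88 to 34.8 over the 6 arrays.

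In the genotype comparison 2 of the 6 plasminogen genes were higher and 2 lower in mutant cells, where 10.4% of all genes tested were higher and 8.92% lower. With no replicate block 0 of the 13 further genes passed (limma), where 89 of all 10916 genes tested passed. So few passed in that fit that the 0 does not set the 13 apart. An unadjusted p under 0.05 was found for 4 of the 13. The share of all genes at that level is not given for that fit, so the 4 cannot be compared. The plasminogen receptor Plgrkt differed by log2 0.17 ± 0.052 (adjusted p = 0.0420) and S100a10, which binds plasminogen in a complex with annexin A2, by 0.15 ± 0.040 (adjusted p = 0.0265). The endocytic receptors Lrp1 and Vldlr, which clear protease and inhibitor complexes, differed by -0.15 ± 0.043 and -0.46 ± 0.061 (adjusted p = 0.0379 and 0.000959). Of the 7 coagulation genes 1 was higher and 2 lower. F2r, the thrombin receptor PAR1, had intensities of 2485, 2529 and 2764 in mutant cells at 0, 60 and 120 minutes, against 1488, 1787 and 2031 in wild-type cells. The genotypes did not overlap, which was also so for Plgrkt, Lrp1, Vldlr, Pros1 and Ggcx and for 16.7% of all genes tested. The F2r difference was log2 0.56 ± 0.058 (adjusted p = 0.000197). Pros1, the protein S cofactor of protein C, differed by -0.33 ± 0.056 and Ggcx, the carboxylase that activates vitamin K-dependent clotting factors, by -0.47 ± 0.070 (adjusted p = 0.00365 and 0.00179).

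Over the first hour 0 of these 13 genes passed in either direction (limma), where 7.34% of all genes tested rose and 10.7% fell. An unadjusted p under 0.05 was found for 4 of the 13, and for 3532 of all 10916 genes tested, so these counts set the 13 apart in no way. The largest differences were -0.30 ± 0.12 for F8 and -0.18 ± 0.063 for Vkorc1 (adjusted p = 0.119 and 0.0795). Over 120 minutes 3 rose and 4 fell, where 16.2% of all genes tested rose and 30.8% fell. Anxa2 and S100a10 rose by log2 0.21 ± 0.043 and 0.22 ± 0.049, and F2r by 0.30 ± 0.071. Vldlr (-0.27 ± 0.075), F8 (-0.34 ± 0.12), Pros1 (-0.27 ± 0.069) and Vkorc1 (-0.22 ± 0.063) fell. For the second hour alone, 1 of the 6 plasminogen genes and 0 of the 7 coagulation genes passed (limma). All genes tested rose in 10.2% and fell in 15.0% of cases. The gene that passed was Anxa2, with a rise of log2 0.16 ± 0.043 (adjusted p = 0.0190).

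**Figure D5:**
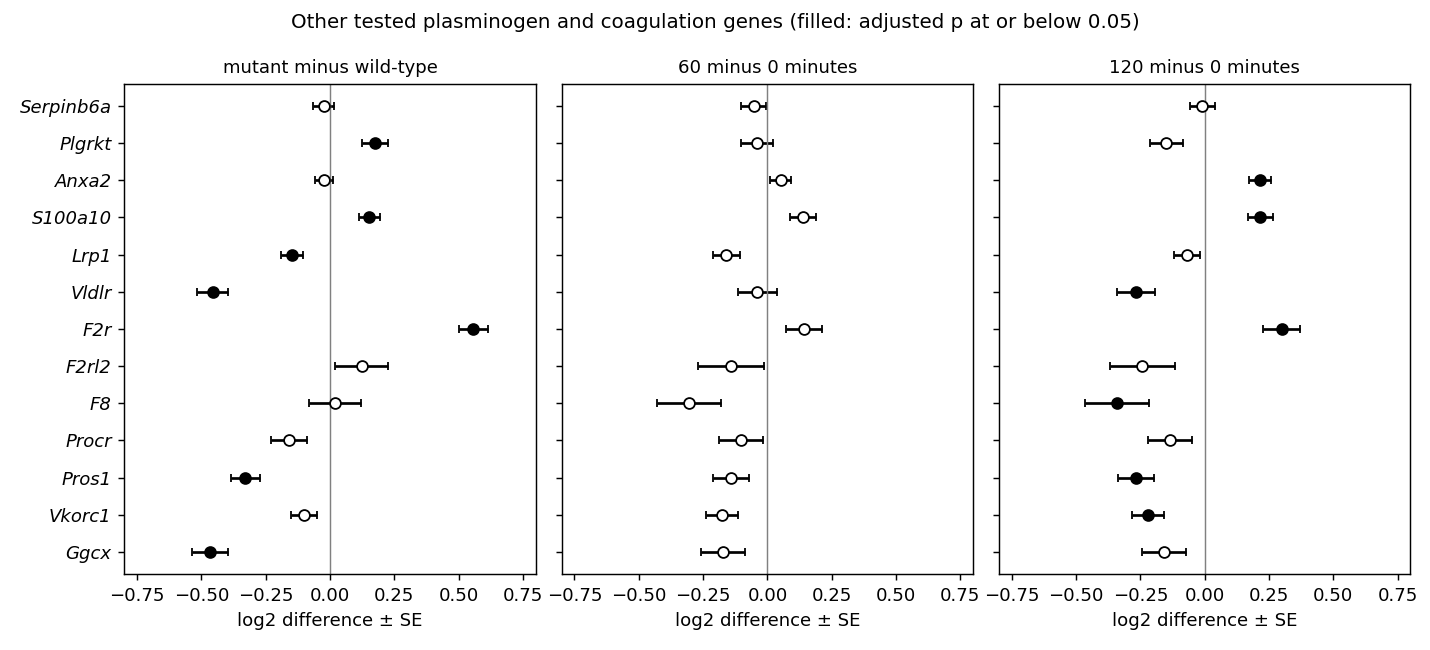
Log2 difference with its SE for the 13 further plasminogen and coagulation genes above the filter level, in the comparison of genotypes and in the contrasts of 60 and 120 with 0 minutes; filled points passed at an adjusted p of 0.05. F2r is the highest point and Ggcx the lowest in the genotype panel, and no point is filled at 60 minutes.

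The genes whose profiles over the 6 arrays were most like those of F3, Plau and Plaur were ranked by Euclidean distance between mean-centred log2 values. The 6 arrays share genotypes and times, so these are descriptions. Nearest to F3 were Egr1 (distance 0.72, Pearson's r 0.964), Zfp36 (0.72, r 0.959) and Mideas (0.79, r 0.967). Egr1 had log2 differences of 1.30 in mutant and 1.48 in wild-type cells over the first hour, and of -2.21 in mutant and -2.05 in wild-type cells over the second. Nearest to Plau were Prkab2 (0.26, r 0.996), Lurap1l (0.45, r 0.987) and Smad7 (0.55, r 0.965). Nearest to Plaur were Tnfrsf12a (0.56, r 0.993), Rgs16 (0.62, r 0.985) and Acta2 (0.73, r 0.983), which like Plaur were at their highest level at 120 minutes in both genotypes.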

How the data were processed

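RNA of 6 samples was measured on Affymetrix arrays. The deposited values are linear probe-set intensities; the submitters' processing notes name PLIER and Affymetrix Power Tools 1.14.3.1, and background correction and scaling are not given in the sources used here. The annotation named 1 gene for 34945 of 45101 probe sets, several for 932 and none for 9160, beside 64 controls; symbols of 34741 were updated through gene IDs. Values were transformed to log2(intensity + 16), with no rescaling of arrays. Each gene took its brightest probe set, and the filter removed the lowest 40 percent of genes by mean level.

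limma 3.58.1 in R 4.3.3 fitted genotype and time as additive terms with a prior that followed mean level (2 residual degrees of freedom, 7.77 from the prior). Tests were two-sided with Benjamini-Hochberg adjustment over all 10916 genes, and a gene passed at 0.05. Differences and adjusted p-values of the further probe sets of a member came from the unfiltered fit, with adjustment over all 34945 probe sets. The number of arrays limits the precision. With 1 array per genotype and time, the residual is how far the time courses of the genotypes depart from parallel, moderated by the prior. The p-values measure only that spread, which may be technical, and not a spread between repeat arrays. Time, given by the labels, pairs the genotypes; deviations from genotype means correlated across genes at 0.911, 0.756 and 0.871 for 0, 60 and 120 minutes, which includes the shared time response. Genes named were all members, up to 4 passing genes per list and contrast, and the 3 nearest profiles of each member with a log2 range of at least 1. The members and lists were chosen with earlier results of these data known. The fit was also run on simulated data with planted effects and independent noise around the same additive model. That run cannot bear on time courses that are not parallel or on errors of single arrays, since it held neither. Alternatives were offset, filter, scaling, shrinkage, probe-set choice, terms and omission of each array; fitting all probe sets unfiltered was added after seeing the data.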

Additional observations from a re-analysis of the deposited data

Results flagged for a closer look

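For Tfpi the arrays of the genotypes moved in opposite directions in both hours. Over the first hour the log2 difference was -0.24 in mutant and 0.20 in wild-type cells. Over the second hour it was 0.039 in mutant and -0.34 in wild-type cells. Plat differed in sign over the second hour, by -0.0075 in mutant and 0.12 in wild-type cells. Each value compares 2 single arrays, and the difference between genotypes was not tested.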

How the results depend on the processing

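Of 372 recomputed log2 differences of the 6 members, 340 kept their direction and side of the threshold, 24 no longer passed, 2 newly passed and 6 changed sign. The sign changes were of values that had not passed. Tfpi over the first hour, at -0.02 ± 0.12 in the main fit, became 0.039 after quantile normalization and 0.027 when averaging its probe sets. It became 0.10 and 0.18 without the mutant arrays of 0 and 60 minutes, within -0.23 to 0.18 over all omissions of 1 array. Tfpi over the second hour, at -0.15 ± 0.12 in the main fit, became 0.055 without the wild-type array of 60 minutes (range -0.35 to 0.055). Thbd over the first hour, at -0.01 ± 0.056, became 0.015 without the mutant array of 0 minutes (range -0.044 to 0.015). With no replicate block, which drops the pairing by time, 0 members and 89 genes passed for genotype, against 3 and 2112. Without the trend 1 member and 1397 genes passed. Without the genotype term 585, 2772 and 1007 genes passed for 60 minus 0, 120 minus 0 and 120 minus 60 minutes, against 1969, 5130 and 2746, and 3 members passed for 120 minus 0 and 1 for 120 minus 60 minutes, against 5 and 4. When probe sets were averaged only 2 members passed over the first hour, against 4, since Plau then fell below the filter and Plat missed the threshold. Fitting all probe sets gave 2988 and 8021 sets for 60 and 120 minus 0 minutes, and 7706 for 120 minus 0 minutes with no filter (added after seeing the data), with more features tested. Leaving out 1 array gave 1373 to 2163 genes and 2 to 3 members for genotype, 1156 to 2516 and 3 to 4 for the first hour, 1956 to 2718 and 3 to 4 for the second, and 3691 to 5317 and 5 for the whole course. The first-hour count was 1164 without the mutant and 1188 without the wild-type array of 0 minutes, and 1156 without the mutant array of 60 minutes. In the same order the genotype count was 1393 and 1402 without an array of 0 minutes and 1373 and 1384 without one of 60 minutes. Dim sets such as those of Plau limit the size of any fold.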
